A study of Mus musculus with 26 samples.

Results

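The 9 genes described here encode proteases and regulators of the complement cascade: C1s1, C1s2, C1ra, C1rb, C3, C4b, Cfb, Cd55 and Serping1. They were taken by name, as the probe sets whose gene symbol in the platform table was a single one of these. Of the 35556 probe sets on the array, 7 carried a single member symbol, one each for C1s1, C1s2, C1ra, C4b, Cfb, Cd55 and Serping1. A further probe set, 10541683, carried the symbols of both C1rb and C1ra and is given as C1rb/C1ra, apart from the counts. C3 had no probe set in the table used and was not analysed here.

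Expression was measured in neurospheres (NSPs), floating clusters of neural stem cells grown from the ventricular zone of C57BL/6J mouse embryos at embryonic day 14. NSPs were grown with the growth factor EGF. Differentiation into astrocytes began at 0 h, when NSPs were plated in medium with 10% serum, so the 0 h arrays mark its start. In comparisons with 0 h, time and the change of medium and plating cannot be told apart. Untreated cells had 3 arrays for each of the times 0, 6, 24, 48 and 72 h. Cells kept in TNF at 50 ng/mL had 3 arrays for each of the times 6, 24 and 48 h, and 2 arrays for 72 h. The cultures were primary, and the labels name no transgene and define the groups by time and TNF alone. The submitters describe the replicates as biological. Array medians lay between 7.54 and 7.76 on the log2 scale. Nfkbia, which encodes the inhibitor that NF-κB itself induces, was higher with TNF by 2.11 (SE 0.143), 2.38, 2.67 and 2.62 log2 units at 6, 24, 48 and 72 h.

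Complement is a chain of plasma and cell-surface proteins that tags targets and recruits phagocytes. In the classical pathway, C1q binds a target and activates a pair of serine proteases, C1r and C1s. C1r cleaves C1s, and C1s then cleaves C4 and C2 to build the enzyme that splits C3. Factor B, the product of Cfb, supplies the protease of the alternative pathway. C1 inhibitor, the product of Serping1, blocks C1r and C1s, and Cd55 (decay-accelerating factor) takes the C3-splitting enzymes apart on host cells. In the brain, glia make complement components locally, and reactive astrocytes are known for it. The mouse has tandem copies of the C1r and C1s genes, with C1ra and C1s1 next to C1rb and C1s2.

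On GRCm38.p6 the 4 genes of C1r and C1s lie within 123.5 kb of chromosome 6. C1ra covers chr6:124512621-124523440 on the plus strand and C1s1 covers chr6:124530344-124542392 on the minus strand. C1rb covers chr6:124570430-124581044 on the plus strand and C1s2 covers chr6:124624625-124636085 on the minus strand. The components are on chromosome 17, with C3 at chr17:57203967-57228136, C4b at chr17:34728139-34743902 and Cfb at chr17:34856374-34862514. The regulators are elsewhere, with Cd55 at chr1:130429798-130465009 and Serping1 at chr2:84765360-84775444.

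The sequences before the starts of the C1r and C1s genes are shown because all member probe sets called with TNF below belong to these 4 neighbours. Each line gives the 250 bases upstream of an annotated start in RefSeq (GRCm38.p6), 5′ to 3′ on the gene's own strand, and capitals mark matches to the motifs searched.
C1ra (chr6:124512371-124512620, plus strand): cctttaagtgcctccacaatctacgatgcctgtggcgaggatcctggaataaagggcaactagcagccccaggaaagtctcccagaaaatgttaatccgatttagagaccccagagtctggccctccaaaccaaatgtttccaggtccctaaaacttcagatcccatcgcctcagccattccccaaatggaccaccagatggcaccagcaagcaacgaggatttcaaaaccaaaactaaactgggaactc
C1rb (chr6:124570180-124570429, plus strand): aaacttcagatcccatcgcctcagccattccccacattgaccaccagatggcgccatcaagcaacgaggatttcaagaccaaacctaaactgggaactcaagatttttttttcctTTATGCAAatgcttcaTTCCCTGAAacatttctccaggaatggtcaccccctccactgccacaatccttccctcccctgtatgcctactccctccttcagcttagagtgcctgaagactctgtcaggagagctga
C1s1 (chr6:124542360-124542609, minus strand, one of 2 starts in the table): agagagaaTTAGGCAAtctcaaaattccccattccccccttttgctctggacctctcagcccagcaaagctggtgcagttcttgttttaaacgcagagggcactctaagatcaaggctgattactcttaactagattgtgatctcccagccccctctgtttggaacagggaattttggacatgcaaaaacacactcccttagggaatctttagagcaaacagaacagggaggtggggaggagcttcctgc
C1s2 (chr6:124636086-124636335, minus strand): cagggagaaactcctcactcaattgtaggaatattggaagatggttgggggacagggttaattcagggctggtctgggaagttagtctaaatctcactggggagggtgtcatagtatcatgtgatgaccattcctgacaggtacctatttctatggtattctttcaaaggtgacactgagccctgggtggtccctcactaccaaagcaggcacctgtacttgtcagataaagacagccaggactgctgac

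The promoter table held windows for 6 of the 9 genes, namely C1s1, C1s2, C1ra, C1rb, C3 and Cd55. Windows ran from 250 bases before to 50 bases after the start, and both strands were searched. GGGANNTTC and GGGGNNTTC, written for NF-κB-type sites, were in none of these windows, against 3.94 and 3.86 percent of 32851 windows in the table. TTCNNNGAA, written for STAT-type sites, was in those of C1ra and C1rb and in 8.3 percent of all windows. TTGCNNAA, written for C/EBP-type sites, was in those of C1ra, C1rb, C3 and 1 of the 2 C1s1 windows, and in 10.8 percent of all windows. None of the 4 motifs was found in the windows of C1s2 and Cd55.

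The windows of C1ra and C1rb were copies of each other over part of their length. A stretch of 148 aligned bases was identical at 139 positions, or 93.9 percent, and ran from −99 to 50 in C1ra and from −250 to −102 in C1rb. It holds both motifs, in the same 25 bases in each gene, printed here with the motifs in capitals.
C1ra (chr6:124512637-124512661, 17 to 41 bases from the start): TTATGCAAatgcttcaTTCCCTGAA
C1rb (chr6:124570295-124570319, −135 to −111 bases from the start): TTATGCAAatgcttcaTTCCCTGAA
The same bases therefore fall after the annotated start of C1ra and before that of C1rb. The windows of C1s1 and C1s2 had no comparable stretch, with 11 aligned bases at most. These matches are letters in a window and were not tested as binding sites.

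To see how TNF affected each gene, each TNF group was set against the untreated group of its own time. The proteases C1s1, C1ra and C1s2 and the shared probe set C1rb/C1ra were higher with TNF, while C4b, Cfb, Cd55 and Serping1 did not pass the test at any time. Calls of the C1r and C1s probe sets began at 24 h, with the highest estimates at 48 or 72 h. At 6 h, 0 of the 7 genes were called, at a q-value threshold of 0.05 in limma, and 0 had an unadjusted p below it. Of all probe sets, 0.312 percent were called higher and 0.0141 percent lower at that time. At 24 h, 2 of 7 (C1s1 and C1ra) were called higher and 0 lower, against 0.627 and 0.236 percent of all probe sets. At 48 h, 3 of 7 (C1s1, C1s2 and C1ra) were called higher and 0 lower, against 0.773 and 0.264 percent. At 72 h, 2 of 7 (C1s1 and C1ra) were called higher and 0 lower, against 0.596 and 0.554 percent. These counts are no test of the set, because the members were chosen with earlier results of these data known. The called genes are also neighbours in the same cluster.

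The median log2 change of the 7 genes was 0.19, 0.22, 0.49 and 0.30 at 6, 24, 48 and 72 h. The medians of all probe sets were −0.04, 0.01, −0.02 and −0.02. TNF and untreated arrays did not overlap for 0 of 7 genes at 6 h, 3 of 7 at 24 h, 7 of 7 at 48 h and 4 of 7 at 72 h. The shares of all probe sets without overlap were 8.55, 14.2, 12.2 and 41 percent. At 48 h, 5 of the 7 genes lay higher with TNF, and C4b and Cfb lay lower. The margin for Cfb was small, with 6.9082 for its highest TNF array and 6.9143 for its lowest untreated one. In a culture measured as a whole, a change in the share of cells of one kind and a change in RNA per cell cannot be told apart.

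**Figure D1:**
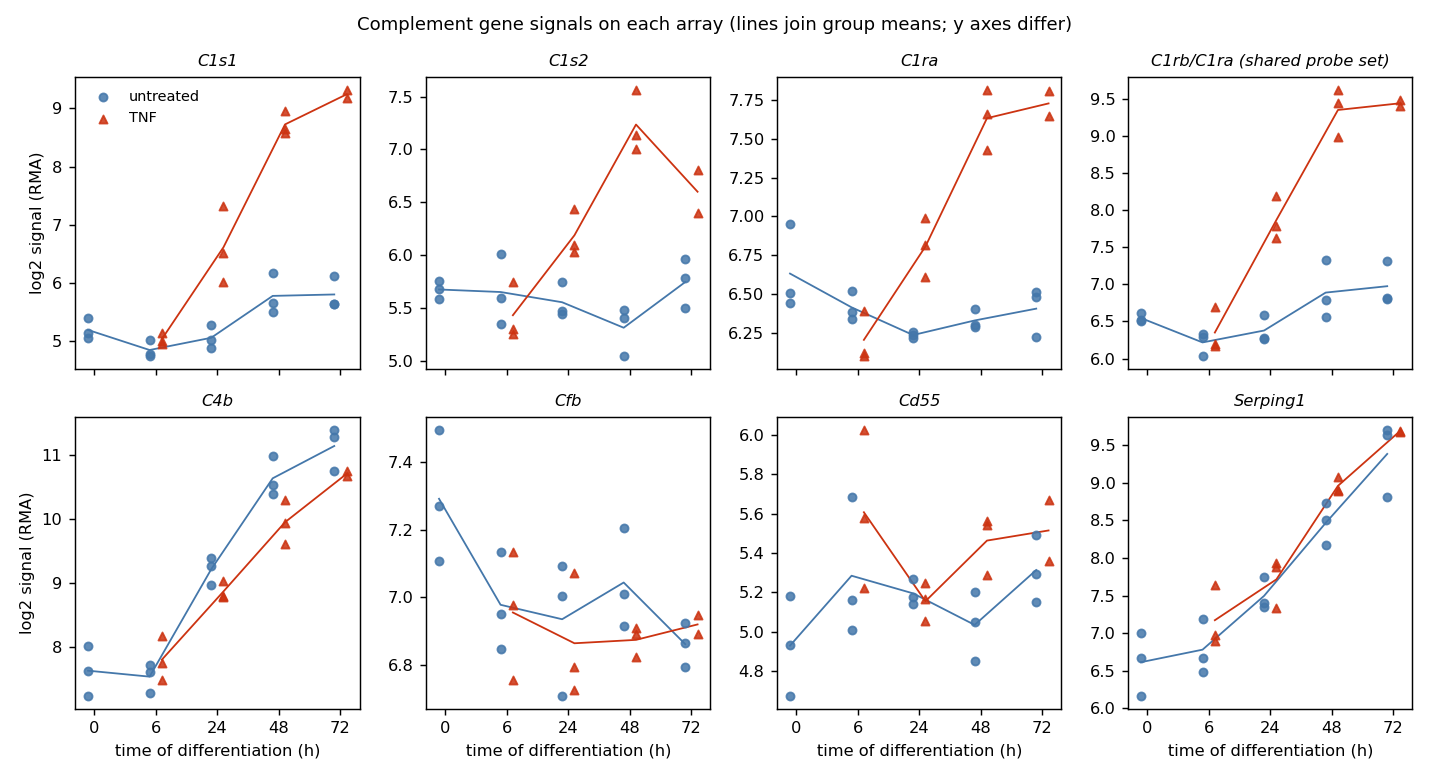
Each panel plots the log2 RMA signal of 1 probe set (y axis, scales differ) against the time of differentiation in h (x axis, times evenly spaced). Circles are untreated arrays, triangles are TNF arrays and lines join group means. C1s1 separates from 24 h and reaches 9.31 and 9.18 on the TNF arrays at 72 h, while the untreated means of C4b and Serping1 go from 7.64 and 6.61 at 0 h to 11.14 and 9.38 at 72 h.

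C1s1, the protease that cleaves C4 and C2, had the highest estimated TNF effect of the members at 24, 48 and 72 h, with no test of the difference between genes. Untreated signals were 5.38, 5.05 and 5.13 at 0 h and then 5.01, 4.77 and 4.74 at 6 h, in the order of replicates 1 to 3. They were 5.02, 5.26 and 4.87 at 24 h, 5.65, 6.17 and 5.50 at 48 h and ended at 5.64, 6.11 and 5.64 at 72 h. With TNF they were 5.00, 5.14 and 4.95 at 6 h, 6.00, 7.31 and 6.51 at 24 h, 8.57, 8.96 and 8.64 at 48 h and ended at 9.31 and 9.18 at 72 h. From 24 h on, the lowest TNF array was above the highest untreated array of its time. The log2 change was 0.19 (SE 0.234, q = 0.894) at 6 h and 1.56 (SE 0.234, q = 7.6e-04) at 24 h. It was 2.95 (SE 0.234, q = 1.08e-07) at 48 h and 3.45 (SE 0.262, q = 1.1e-07) at 72 h. As folds, the later values were 2.95, 7.75 and 10.9. By log2 change, C1s1 ranked 3601, 43, 9 and 3 among all 35556 probe sets at the 4 times.

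The levels of C1s1 ran in order from untreated 6 h (4.84 ± 0.145, SD, n = 3) through TNF 6 h, untreated 24 h and untreated 0 h (5.19 ± 0.177, SD, n = 3). Neighbours in this stretch overlapped. Untreated 48 and 72 h followed at 5.77 and 5.80 and overlapped each other, then TNF 24 h at 6.61 ± 0.661 (SD, n = 3), whose lowest array lay within the untreated 72 h range. TNF 48 h (8.73 ± 0.209, SD, n = 3) and TNF 72 h (9.24 ± 0.0957, SD, n = 2) stood apart from each other and from all the rest. The C1s1 probe set was dim, and 21.4 percent of probe sets had a lower mean over the 26 arrays.

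C1s2, the second C1s gene of the cluster, passed the test at 48 h, and its value at 72 h lay close to the threshold. Its untreated signals were 5.76, 5.59 and 5.68 at 0 h, 6.01, 5.35 and 5.60 at 6 h and then 5.75, 5.44 and 5.47 at 24 h. They were 5.05, 5.48 and 5.41 at 48 h and ended at 5.50, 5.96 and 5.78 at 72 h. With TNF they were 5.74, 5.25 and 5.30 at 6 h, 6.09, 6.44 and 6.03 at 24 h, 7.01, 7.56 and 7.14 at 48 h and ended at 6.80 and 6.40 at 72 h. TNF arrays were separated from untreated arrays at 24, 48 and 72 h and were highest at 48 h. The log2 change was −0.22 (SE 0.19, q = 0.894) at 6 h, 0.63 (SE 0.19, q = 0.196) at 24 h, 1.92 (SE 0.19, q = 2.56e-06) at 48 h and 0.85 (SE 0.213, q = 0.0532) at 72 h. C1s1 and C1s2 are close copies as well, and signal shared between their probe sets was not tested. The 95% interval at 72 h ran from 0.41 to 1.30, and the difference between the effects at 48 and 72 h was not tested. C1s2 was called at 72 h with cyclic loess (q = 0.0461), the replicate block (0.0388), only the arrays compared (0.04) or probe sets averaged per gene (0.0329). It was not called there with Benjamini-Hochberg, with an intensity trend or with any 1 of the 5 arrays left out. In the order of levels, the 6 lowest groups, untreated cells and TNF 6 h, overlapped with their neighbours. TNF 24 h (6.19 ± 0.218, SD, n = 3) and TNF 72 h (6.60 ± 0.284, SD, n = 2) overlapped each other, and TNF 48 h was above both at 7.24 ± 0.287 (SD, n = 3).

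C1ra, which encodes the protease that activates C1s, rose with TNF at 24, 48 and 72 h. Untreated signals were 6.95, 6.44 and 6.51 at 0 h, 6.34, 6.52 and 6.38 at 6 h, 6.24, 6.22 and 6.26 at 24 h, 6.29, 6.41 and 6.30 at 48 h and ended at 6.23, 6.49 and 6.51 at 72 h. With TNF they were 6.13, 6.39 and 6.10 at 6 h, 6.82, 6.61 and 6.99 at 24 h, 7.43, 7.81 and 7.66 at 48 h and ended at 7.64 and 7.81 at 72 h. All TNF arrays from 24 h on were above the untreated arrays of the same time. The log2 change was −0.21 (SE 0.133, q = 0.894) at 6 h, 0.57 (SE 0.133, q = 0.0422) at 24 h, 1.30 (SE 0.133, q = 3.81e-06) at 48 h and 1.32 (SE 0.148, q = 1.95e-05) at 72 h. The last 2 amount to 2.46- and 2.49-fold. The call at 24 h was lost when any 1 of 5 arrays was left out, namely untreated replicates 1, 2 and 3 and TNF replicates 1 and 3, with q-values of 0.138 to 0.238. TNF 48 and 72 h overlapped and stood above TNF 24 h, which overlapped with untreated 0 h because of the first array of that group.

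The probe set shared by C1rb and C1ra also rose at the 3 later times. Its untreated signals were 6.50, 6.61 and 6.52 at 0 h, 6.29, 6.33 and 6.04 at 6 h and then 6.27, 6.28 and 6.59 at 24 h. They were 6.55, 7.33 and 6.78 at 48 h and ended at 6.80, 7.31 and 6.82 at 72 h. With TNF they were 6.17, 6.69 and 6.20 at 6 h, 7.63, 8.19 and 7.79 at 24 h, 8.99, 9.62 and 9.45 at 48 h and ended at 9.48 and 9.40 at 72 h. The groups were separated at the 3 later times. The log2 change was 0.13 (SE 0.204, q = 0.898), 1.49 (SE 0.204, q = 2.71e-04), 2.46 (SE 0.204, q = 2.03e-07) and 2.47 (SE 0.228, q = 1.58e-06) at 6, 24, 48 and 72 h. Because the platform table assigns this probe set to both genes, the share of each in its signal is not known. In the order of levels, the 6 lowest groups each overlapped with the next, TNF 24 h (7.87) stood apart, and TNF 48 h (9.35) and TNF 72 h (9.44) overlapped. Over the 26 arrays its signal correlated with that of C1s1 at r = 0.985, and at 0.673 after group means were removed. For C1ra and C1s1 the same values were 0.918 and 0.103. These are descriptions, and the arrays share groups, times and replicate numbers.

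**Figure D2:**
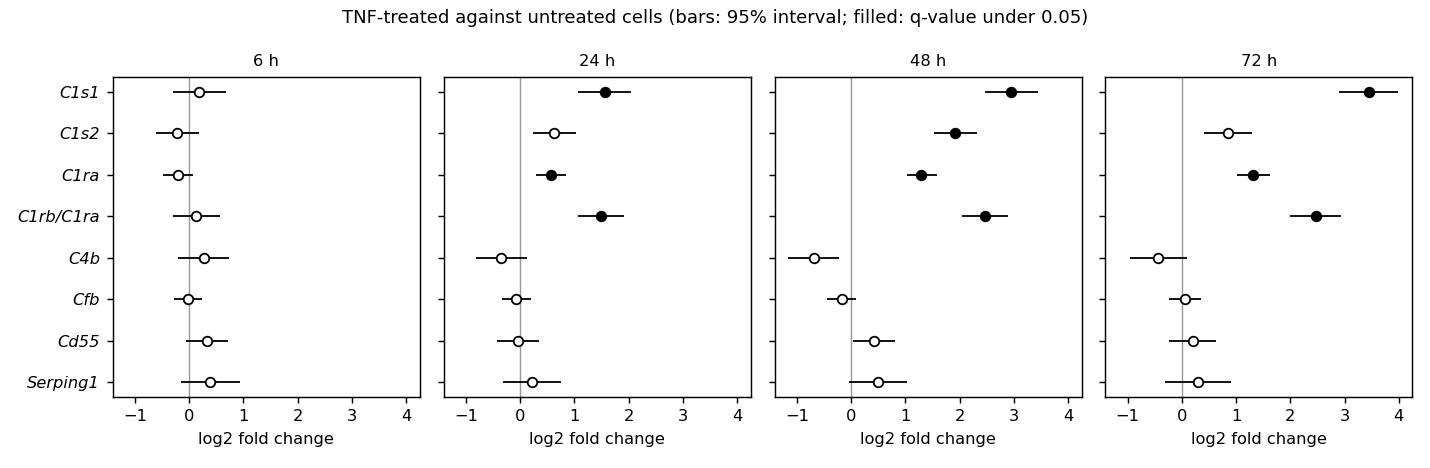
Points give the log2 fold change of TNF-treated against untreated cells for each probe set (x axis) at 4 times (panels), with 95% intervals from limma; filled points have a q-value under 0.05. Filled points belong to C1s1, C1s2, C1ra and C1rb/C1ra, from 1.30 to 2.95 at 48 h, and those of C4b, Cfb, Cd55 and Serping1 are open at all times.

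The genes on either side of the cluster on chromosome 6 were not called. The nearest measured protein-coding genes were Clstn3 and C1rl, a C1r-like protease gene, on the side of C1ra, and Lpcat3 and Emg1 on the side of C1s2. Their log2 changes with TNF at 48 h were −0.07 (SE 0.116) for Clstn3, 0.28 (SE 0.137, q = 0.701) for C1rl, −0.02 (SE 0.0896) for Lpcat3 and 0.25 (SE 0.154) for Emg1. None of the 4 was called at 6, 24, 48 or 72 h. The difference between them and the cluster genes was not tested.

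**Figure D3:**
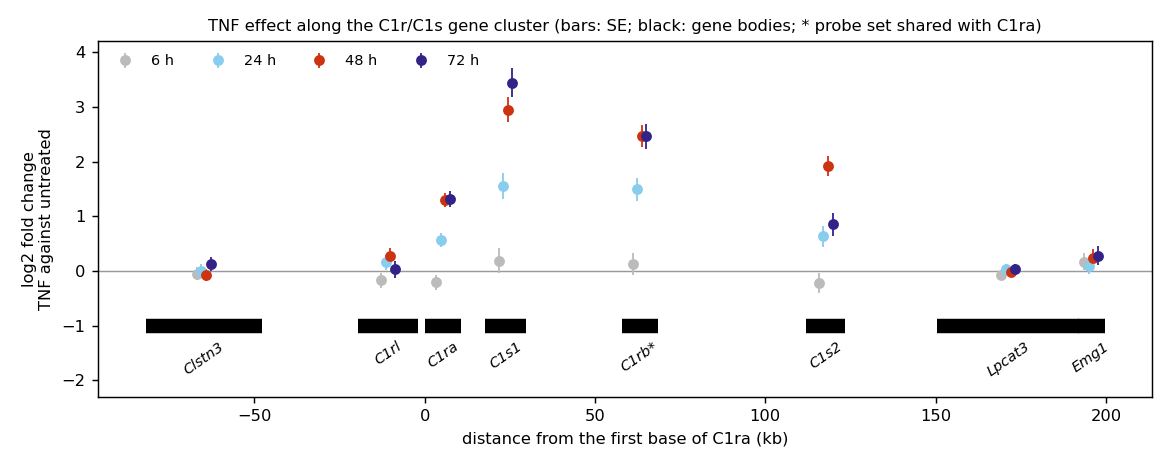
Log2 fold changes of TNF-treated against untreated cells (y axis, bars are SE) at 4 times (colours) along the C1r/C1s cluster, with the distance from the first base of C1ra in kb on the x axis and gene bodies as black bars. C1s1 reaches 2.95 and 3.45 at 48 and 72 h, and C1rl, next to C1ra, stays at 0.28 and 0.03.

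Whether the TNF effect differed between times was tested against the effect at 6 h, with the arrays of 6 h shared by the 3 comparisons. At 24 h, 0 of 7 genes had a called increase in effect (limma with q-values), 3 had an unadjusted p under the threshold, and 0.0253 percent of all probe sets were called. At 48 h, 3 of 7 were called, against 0.0844 percent. The effect was larger than at 6 h by 2.76 (SE 0.331, q = 3.86e-04) for C1s1, 2.14 (SE 0.269, q = 4.1e-04) for C1s2 and 1.51 (SE 0.188, q = 4.07e-04) for C1ra. At 72 h, 2 of 7 were called, against 0.09 percent. The effect was then larger by 3.26 (q = 1.08e-04) for C1s1, first among all probe sets, and by 1.53 (q = 6.55e-04) for C1ra. For C1rb/C1ra the differences at 48 and 72 h were 2.33 (q = 4.07e-04) and 2.33 (q = 6.56e-04). Its difference at 24 h was 1.36 with q = 0.257, and q = 0.024 with the replicate number as a block. That block was fitted over all 26 arrays, including those at 48 and 72 h, which were not taken as paired. For C4b, Cfb, Cd55 and Serping1 no such difference was called.

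C4b encodes complement C4, the substrate of C1s, and was called higher during untreated differentiation and was not called with TNF. Untreated signals were 8.02, 7.64 and 7.25 at 0 h, 7.61, 7.73 and 7.29 at 6 h, 9.27, 8.97 and 9.40 at 24 h, 10.53, 10.39 and 10.98 at 48 h and ended at 11.28, 10.75 and 11.39 at 72 h. All untreated arrays at 24, 48 and 72 h were above all those at 0 h. Against 0 h, C4b in untreated cells differed by −0.09 (q = 0.682) at 6 h and rose by 1.58 (SE 0.225, q = 3.57e-05) at 24 h. At 48 and 72 h the rise was 3.00 (SE 0.225, q = 7.44e-09) and 3.50 (SE 0.225, q = 5.84e-10) log2 units, the latter 11.3-fold.

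With TNF, C4b signals were 7.76, 8.17 and 7.50 at 6 h, 8.78, 8.80 and 9.03 at 24 h, 9.93, 9.61 and 10.30 at 48 h and ended at 10.66 and 10.74 at 72 h. At 48 and 72 h every TNF array lay below every untreated array, and at 6 and 24 h the groups overlapped. The margin at 72 h was small, with 10.7435 for the highest TNF array and 10.7514 for the lowest untreated one. Of all probe sets, 12.2 percent were without overlap at 48 h and 41 percent at 72 h. The log2 difference was 0.27 (95% interval −0.20 to 0.73) at 6 h, −0.34 (−0.81 to 0.12) at 24 h, −0.68 (−1.15 to −0.22) at 48 h and −0.43 (−0.96 to 0.09) at 72 h. Its q-values at 48 and 72 h were 0.254 and 0.657, so that no difference was called. In order of level, untreated 6 h (7.54), untreated 0 h (7.64) and TNF 6 h (7.81) overlapped, followed by TNF 24 h (8.87) and untreated 24 h (9.22), which also overlapped. TNF 48 h (9.95) stood apart, untreated 48 h (10.63) and TNF 72 h (10.70) overlapped, and untreated 72 h was highest at 11.14 ± 0.340 (SD, n = 3). C4b has a close copy, C4a, whose untreated mean was 6.46 at 0 h and 7.94 at 72 h, and how far the probe sets of the pair share signal is not known.

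Cfb, the gene of factor B, was not called with TNF. Untreated signals were 7.50, 7.27 and 7.11 at 0 h, 7.14, 6.85 and 6.95 at 6 h, 7.09, 6.71 and 7.004 at 24 h, 7.21, 7.01 and 6.91 at 48 h and ended at 6.87, 6.79 and 6.92 at 72 h. TNF signals were 6.98, 7.13 and 6.75 at 6 h, 7.07, 6.73 and 6.79 at 24 h, 6.82, 6.89 and 6.91 at 48 h and ended at 6.95 and 6.89 at 72 h. At 48 h the TNF arrays lay just below the untreated ones, with 6.9082 for the highest TNF array and 6.9143 for the lowest untreated one. Every group overlapped with its neighbour in the order of means, which ran from 6.86 in untreated 72 h to 7.29 in untreated 0 h. The TNF difference was between −0.17 (95% interval −0.44 to 0.10) at 48 h and 0.06 (−0.24 to 0.36) at 72 h. In untreated cells Cfb fell by 0.36 (SE 0.127, q = 0.0383) from 0 to 24 h and by 0.43 (SE 0.127, q = 0.0109) from 0 to 72 h. The fall at 24 h did not pass when replicate 1 or 2 of 0 h or replicate 2 or 3 of 24 h was left out, with q-values from 0.0579 to 0.241, or with Benjamini-Hochberg (0.0779), cyclic loess (0.0578) or only the arrays compared (0.202). The fall at 72 h did not pass without replicate 1 of 0 h, the highest Cfb array, or with only the arrays compared (0.0775).

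Serping1 encodes the inhibitor of C1r and C1s and, like C4b, was called higher during untreated differentiation. Untreated signals were 6.17, 6.998 and 6.67 at 0 h, 6.49, 7.19 and 6.67 at 6 h, 7.35, 7.74 and 7.39 at 24 h, 8.17, 8.50 and 8.73 at 48 h and ended at 9.70, 8.81 and 9.63 at 72 h. TNF signals were 6.90, 7.64 and 6.98 at 6 h, 7.33, 7.94 and 7.87 at 24 h, 8.89, 8.90 and 9.08 at 48 h and ended at 9.68 and 9.68 at 72 h. Untreated arrays from 24 h on were above those of 0 h. The untreated rise from 0 h was 0.17 (q = 0.637) at 6 h, 0.88 (SE 0.258, q = 0.0152) at 24 h, 1.85 (SE 0.258, q = 2.43e-05) at 48 h and 2.77 (SE 0.258, q = 8.42e-08) at 72 h, the last 6.81-fold. The call at 24 h was lost without replicate 1 of 0 h or replicate 2 of 24 h.

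The TNF difference of Serping1 was 0.39 (95% interval −0.15 to 0.93), 0.22 (−0.32 to 0.76), 0.49 (−0.05 to 1.03) and 0.30 (−0.30 to 0.90) at the 4 times, and none was called. Arrays of the groups were separated at 48 h only. In order of level, the 5 lowest groups, from untreated 0 h (6.61) to TNF 24 h (7.71), overlapped with their neighbours. Untreated 48 h (8.46) stood apart from both its neighbours, and TNF 48 h (8.96), untreated 72 h (9.38) and TNF 72 h (9.68) overlapped in turn. Over the 26 arrays Serping1 and C4b correlated at r = 0.912, and at 0.356 after group means were removed.

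Cd55, which protects cells from complement, was dim, with 11 percent of all probe sets at a lower mean, and was not called in any comparison. Untreated signals were 4.93, 4.68 and 5.18 at 0 h, 5.01, 5.68 and 5.16 at 6 h, 5.14, 5.27 and 5.17 at 24 h, 4.85, 5.20 and 5.05 at 48 h and ended at 5.30, 5.15 and 5.49 at 72 h. TNF signals were 5.22, 6.02 and 5.58 at 6 h, 5.05, 5.25 and 5.17 at 24 h, 5.54, 5.56 and 5.29 at 48 h and ended at 5.36 and 5.67 at 72 h. The groups overlapped at 6, 24 and 72 h, and at 48 h the TNF arrays were above the untreated ones. The TNF difference was 0.32, −0.04, 0.43 and 0.20 at the 4 times, with q = 0.575 at 48 h, where the 95% interval was 0.04 to 0.81. All neighbours in the order of its 9 group means, from 4.93 to 5.61, overlapped.

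Untreated differentiation was followed by comparing each later time with 0 h, with the 0 h arrays shared by all comparisons. C4b and Serping1 were called higher at 24, 48 and 72 h, and the changes of the C1r and C1s probe sets without TNF lay between −0.39 and 0.61. At 6 h, 0 of 7 members were called (limma with q-values) and 1 had an unadjusted p under the threshold, against 4.64 percent of probe sets called higher and 3.03 percent lower. At 24 h, 2 of 7 were called higher and 2 lower, against 10 and 6.51 percent. At 48 h, 2 of 7 were called higher and 0 lower, against 8.99 and 6.97 percent. At 72 h, 3 of 7 were called higher and 1 lower, against 12.6 and 10.2 percent. The third gene higher at 72 h was C1s1, at 0.61 (SE 0.234, q = 0.0392), a call lost without replicate 2 or 3 of 0 h or any 1 array of 72 h. That call was also lost with Benjamini-Hochberg (0.0808) and with only the arrays compared (0.0572). The genes lower at 24 h were Cfb and C1ra, the latter at −0.39 (SE 0.133, q = 0.0295). The C1ra call was lost without replicate 1 of 0 h, its highest array there, or replicate 1, 2 or 3 of 24 h. It was also lost with Benjamini-Hochberg (0.0601), cyclic loess (0.115) and only the arrays compared (0.169).

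**Figure D4:**
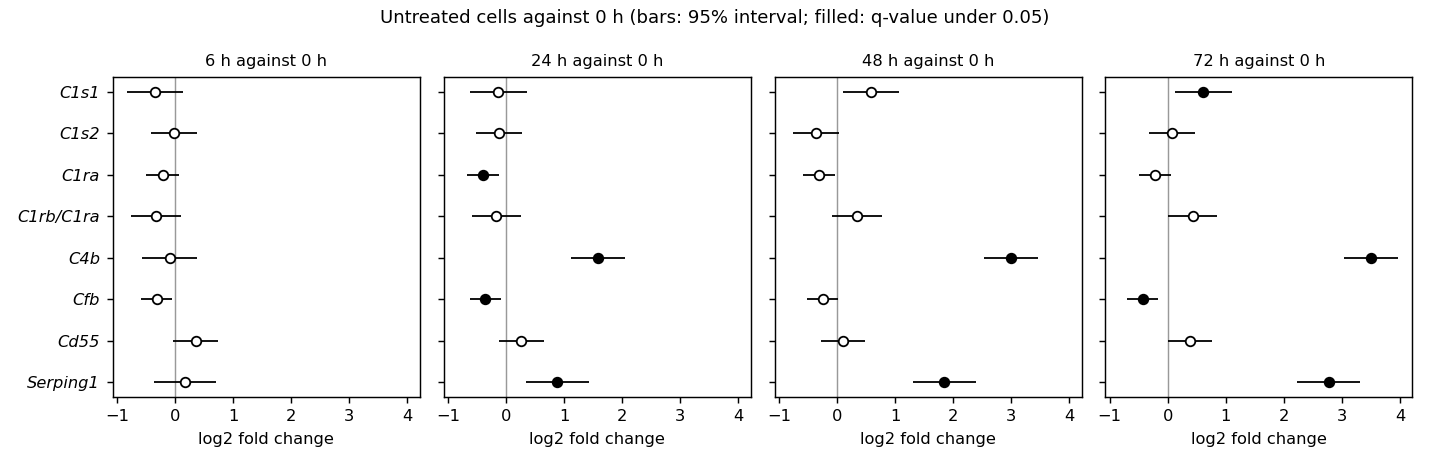
Points give the log2 fold change of untreated cells at each time against untreated cells at 0 h (x axis), with 95% intervals from limma; filled points have a q-value under 0.05. C4b and Serping1 move to 3.50 and 2.77 at 72 h, and the C1r and C1s probe sets stay between −0.39 and 0.61.

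The other genes of the complement system were described from a list of 47, of which 45 had a probe set and 15 were above the dimmest 40 percent. With TNF, 0 were called higher at any time, and 1 was called lower, at 48 h. Among all 19938 genes, 0.507, 0.953, 1.12 and 0.873 percent were called higher at the 4 times, in order, and 0.01, 0.306, 0.376 and 0.657 percent lower. The median log2 change of the list was −0.08, 0.06, −0.12 and −0.06, beside −0.03, 0.02, −0.04 and −0.01 for all genes.

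The gene called lower was Cd59b, a copy of the gene for the inhibitor of the membrane attack complex. Its change at 48 h was −0.90 (SE 0.215, q = 0.0416), from an untreated mean of 7.44 to 6.54. The call was lost without TNF replicate 1, 2 or 3 or untreated replicate 2 or 3, with q-values from 0.073 to 0.2. It was also lost with cyclic loess (q = 0.232) and with only the arrays compared (q = 0.168). Cd59a and Cd59b are close copies, and how far their probe sets share signal is not known. The further genes named here were chosen after their values were seen. Cd59a had the lowest value at 48 h, −1.62 (SE 0.492, q = 0.174), and Csmd1, a membrane regulator, had the highest, 1.42 (SE 0.391, q = 0.103). All 11 genes of recognition and initiation lay between −0.28 and 0.07 at 48 h, among them C1qa at −0.24, C1qb at −0.08 and C1qc at −0.15, the subunits of the C1q molecule that C1r and C1s join. The 11 measured proteases and components lay between −0.29 and 0.34 at 48 h, and the 9 receptors between −0.32 and 0.12. Many of these probe sets were dim. Above the dim probe sets were 5 of the 11 genes of recognition and initiation, 3 of the 11 proteases and components and 0 of the 9 receptors. C1qa, C1qb and C1qc were all dim, with untreated means of 6.96, 6.65 and 6.78 at 48 h. RMA understates changes of dim probe sets, so these ranges cannot show an absence of response. Whether these genes were detected was not tested.

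**Figure D5:**
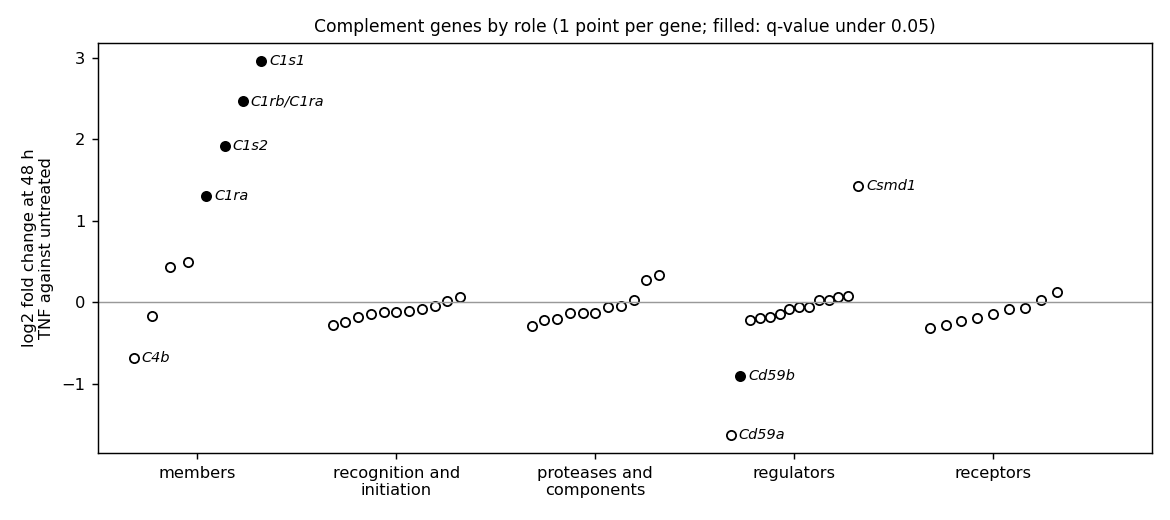
Each point is the log2 fold change at 48 h of TNF-treated against untreated cells (y axis) for 1 gene, grouped by role on the x axis, with filled points for a q-value under 0.05. C1s1, C1rb/C1ra, C1s2 and C1ra stand at 2.95, 2.46, 1.92 and 1.30, and Cd59b at −0.90 is the only other filled point.

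Markers of the cell types that such a culture could hold were read in the same fit. The 8 astrocyte markers were all above the dimmest 40 percent, with a mean of 11.59 at 0 h. At 6 h their mean was 11.73 in untreated cells and 11.51 with TNF. Their mean was 12.52, 12.69 and 12.59 in untreated cells at 24, 48 and 72 h and 12.14, 12.31 and 12.26 with TNF. One of them, Gja1 (connexin 43), was called lower with TNF, by −1.10 (SE 0.237, q = 0.0235) at 24 h, and 0 markers of any list were called higher, against 0.306 percent of all 19938 genes called lower and 0.953 percent higher at that time. Of 10 microglial markers, 9 had a probe set and 3 were above the dimmest 40 percent, and group means ran from 6.39 to 6.61. At 48 h the microglial mean was 6.55 (range 6.44 to 6.76) in untreated cells and 6.42 (6.35 to 6.49) with TNF. The 7 markers of mural cells and fibroblasts had means of 7.10 at 0 h and between 7.59 and 7.85 at the later times, with none called with TNF. From 0 h to untreated 6 h, Acta2 went from 8.40 to 12.73. Over the same step Rgs5 went from 6.44 to 6.61, Col1a1 from 8.36 to 8.41 and Col1a2 from 8.01 to 8.02. Dcn went from 6.24 to 6.26, Lum from 5.08 to 5.06 and Pdgfrb from 7.17 to 6.94. The astrocyte mean was thus lower with TNF at all 4 times, but at 6 h the arrays overlapped (11.56 to 11.83 untreated, 11.42 to 11.58 with TNF). The astrocyte markers did not move alike. At 48 h their changes ran from −0.93 for Gfap to 0.11 for Aldh1l1, with Slc1a3 also higher at 0.04 and the rest lower. None of these was called at 48 h. The part of astrocytes, microglia or the other cell types in the C1r and C1s calls was not tested.

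For each gene called with TNF, the 3 genes with the most similar signal over the 26 arrays were taken by Pearson's r, as a description. For C1s1 these were Slc12a7 (r = 0.976), Slc39a4 (0.965) and Nfkbie (0.965), a cotransporter, a zinc transporter and an NF-κB inhibitor. For C1ra they were Oasl2 (0.946), Slc39a4 (0.945) and Madcam1 (0.94), and for C1s2 Cxcl11 (0.892), Madcam1 (0.887) and Nfkbie (0.882). The arrays share groups and times, so these values describe the same steps in time and treatment. Among the members, C1s1 and C1s2 correlated at r = 0.87, and C1s1 and C4b at 0.507.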

How the data were processed

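Total RNA of 26 NSP cultures was hybridised to Affymetrix mouse gene arrays. The authors deposited log2 signals made with RMA from oligo in R 3.3.1, per the submitters' processing notes, which corrects background, equalizes array distributions and summarizes probes to probe sets. Quantile equalization removes global shifts between arrays, and RMA summaries of dim probe sets understate changes. For oligo and RMA, versions were not given in the sources used here. These values were used as deposited, in the 9 groups of the sample titles, and raw arrays were not analysed here. Of the 35556 probe sets, 21789 carried 1 gene symbol, 1621 several and 12146 none in the table used.

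limma 3.58.1 in R 4.3.3 fitted 9 group means over all 26 arrays, and q-values (an own implementation of the qvalue smoother, called under 0.05) were taken over all probe sets. The scripts were tested on simulated data. The number of arrays, 3 in each group but TNF at 72 h, which has 2, limits the precision. The members and lists were chosen with earlier results of these data known. Named genes are the members, called genes of the complement list, the 3 most similar genes of each called member, and Nfkbia. Outside this rule, Clstn3, C1rl, Lpcat3 and Emg1 flank the cluster, and Gja1 is the called cell-type marker. The choice of Cd59a, Csmd1, C1qa, C1qb, C1qc, C4a and the other cell-type markers named came after their values were seen. Where a gene has several probe sets, the one with the highest mean was used.

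Alternatives were cyclic loess, Benjamini-Hochberg, the replicate number as a block, a fit of only the arrays compared, a robust prior with an intensity trend, each array left out, probe sets averaged per gene, and a fit without dim probe sets (lowest 40 percent by mean). Over the probe sets above the dimmest 40 percent, same-numbered TNF and untreated arrays deviated together at 6 h (r = 0.815, 0.712 and 0.554) and at 24 h (0.599, 0.663 and 0.226), above 0.1 in all pairs, and were taken as paired there, from the data and not from the labels. At 48 h (0.359, 0.764 and 0.0545) and 72 h (0.174 and 0.0104) they were not. Over all probe sets, replicate 3 at 24 h had r = 0.0263, below 0.1, and 5 of the 7 members are among the dimmest 40 percent, so the pairing at 24 h depends on this choice. Promoter windows and gene coordinates are from RefSeq on GRCm38.p6.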

Additional observations from a re-analysis of the deposited data

Results flagged for a closer look

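The TNF effects of the C1r and C1s genes differed between times in a test of the difference itself, as a contrast in the limma fit. Compared with 6 h, the log2 effect at 48 h was larger by 2.76 for C1s1, 2.14 for C1s2, 1.51 for C1ra and 2.33 for C1rb/C1ra. At 72 h it was larger by 3.26 for C1s1, 1.53 for C1ra and 2.33 for C1rb/C1ra. The 2 sets of differences share the arrays of 6 h. No group held enough arrays for a test of single arrays that stand apart.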

How the results depend on the processing

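No called result of a member or of C1rb/C1ra changed direction under any alternative that tested it. At 24 h with TNF, 2 members were called, against 1 with cyclic loess, 0 with only the arrays compared and 1 to 2 with an array left out; C1ra was lost in the first (q = 0.138), and C1ra and C1s1 (q = 0.0845 and 0.0841) in the second. Without dim probe sets 0 members were called with TNF at 24, 48 and 72 h, and 0 for the effects at 48 and 72 h against 6 h, because only C4b and Serping1 of the 7 were then tested. In untreated cells at 24 h, 4 members were called, against 2 with Benjamini-Hochberg, cyclic loess or without dim probe sets, 1 with only the arrays compared and 1 to 4 with an array left out. At 72 h, 4 were called, against 2 without dim probe sets or with only the arrays compared. The replicate block called 1 member (Cfb, q = 0.048) in untreated cells at 6 h, where the main count was 0.

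Where the numbers were not shown to pair arrays, the block also added C1s2 with TNF at 72 h (q = 0.0388), C1s1 in untreated cells at 48 h (q = 0.0272), and Cd55 (q = 0.0439) and C1rb/C1ra (q = 0.0226) at 72 h. Each called result of the members and C1rb/C1ra was checked under each alternative that tested it, and several checks share a fit. Of 168 such checks without an array left out, 155 kept the call and 13 lost it. Of 198 checks with an array left out, 177 kept it and 21 lost it. The cause of the changes other than those without dim probe sets was not tested. Of the 7 members, 5 were among the dimmest 40 percent by mean, where RMA understates changes.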
